A study of Mus musculus with 6 samples.

Results

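The genes described are the 3 TAM receptors Mertk, Axl and Tyro3, their ligands Gas6 and Pros1, and Mfge8, Timd4, Elmo1 and Dock1, which also act in efferocytosis. They are 9 of the 24062 gene symbols in the count tables and were chosen by name. PolyA RNA was sequenced from marrow of C57BL/6J mice grown on substrates of 50 kPa, called high tension (3 libraries), or of 2 kPa, called low tension (3 libraries). Every culture received GM-CSF at 20 ng/ml, renewed on days 3, 6 and 10. GM-CSF drives marrow precursors towards dendritic cells and macrophages. The titles name dendritic cells but no sort is named in the labels, and each value is an average over all cells of a culture. Fewer cells of a type and less RNA per cell cannot be told apart. The labels do not say that replicates came from separate animals or cultures, so the p-values cover no more than the spread among these samples, and that spread may be technical.

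Efferocytosis is the clearance of apoptotic cells by phagocytes, and macrophages and dendritic cells are the main cells that carry it out in marrow. A dying cell exposes phosphatidylserine on its surface. Gas6 and protein S, the product of Pros1, bind that lipid at one end and a TAM receptor tyrosine kinase at the other. Mfge8 bridges phosphatidylserine to integrins, and Timd4 encodes TIM-4, which binds the lipid directly. Elmo1 and Dock1 form an exchange factor that activates Rac at the forming phagocytic cup. TAM signalling also dampens inflammatory responses of dendritic cells and macrophages.

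Libraries held 33.8 M to 36.3 M counts. Likeness of libraries was measured as chi-square divided by its degrees of freedom, which is larger the less alike their counts are. It was 6.71 between high tension replicates 1 and 2, the closest pair, and 126 to 233 between the other libraries of 1 group. Low tension replicate 1 stood closer to the 3 high tension libraries (122 to 136) than to low tension replicates 2 and 3 (156 and 213). Of the 14 macrophage markers looked for, none was at 0 in all libraries. Their summed level lay at 19300 to 21100 CPM at 50 kPa and 8190 to 14800 CPM at 2 kPa. Lyz2 made up most of that sum, 15100 to 17300 CPM at 50 kPa and 6230 to 11600 CPM at 2 kPa. The other 13 macrophage markers, a sum chosen after the values were seen, lay at 3850 to 4170 CPM at 50 kPa and 1960 to 3290 CPM at 2 kPa. The 14 dendritic cell markers, none at 0 in all libraries, summed to 2530 to 3740 CPM at 50 kPa and 2020 to 3300 CPM at 2 kPa. Itgax, which macrophages can also express, made up 1410 to 2960 CPM of that sum at 50 kPa and 299 to 1110 CPM at 2 kPa. Without it, a sum chosen after its values were seen, the other 13 dendritic cell markers lay at 781 to 1120 CPM at 50 kPa and 1290 to 2300 CPM at 2 kPa, with no overlap. Of 13 dendritic cell markers tested, edgeR called 0, with a median log2 fold change of -0.71 and 2 higher and 7 lower at an unadjusted p under 0.05, and DESeq2 called 1 higher, Itgax, and 7 lower, among them Ccr7, Fscn1, Cd86, Flt3 and Dpp4, likewise named after their values were seen. The 11 neutrophil markers summed to 862 to 1630 CPM at 50 kPa and 3800 to 7370 CPM at 2 kPa. The 9 B cell markers summed to 25.6 to 109 CPM at 50 kPa and 889 to 1440 CPM at 2 kPa. Igj made up most of the B cell sum, 16.9 to 84.1 CPM at 50 kPa and 761 to 1210 CPM at 2 kPa. Of these markers edgeR called 7 neutrophil and 8 B cell genes lower and 0 higher, beside 1.98% of all tested genes lower. The 7 basophil and mast cell markers summed to 151 to 180 CPM at 50 kPa and 284 to 685 CPM at 2 kPa. CPM here is counts per M of a library's total scaled by its TMM factor from edgeR.

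Promoter windows of 6 members are shown because 2 sets of them moved together across the libraries and because Elmo1 passed the test. Mfge8 and Dock1 also moved with Tyro3, Gas6 and Pros1, and their windows are counted below but not printed. Each runs from 250 bases before to 50 bases after a RefSeq gene start on GRCm38.p6 and is written 5′ to 3′ along the gene's strand. Capitals mark the GC box letters GGGCGG or their reverse complement CCGCCC, with overlapping matches counted separately. Mertk and Axl come first, then Tyro3, Gas6 and Pros1, then Elmo1.
Mertk, chr2:128698665-128698964, plus strand: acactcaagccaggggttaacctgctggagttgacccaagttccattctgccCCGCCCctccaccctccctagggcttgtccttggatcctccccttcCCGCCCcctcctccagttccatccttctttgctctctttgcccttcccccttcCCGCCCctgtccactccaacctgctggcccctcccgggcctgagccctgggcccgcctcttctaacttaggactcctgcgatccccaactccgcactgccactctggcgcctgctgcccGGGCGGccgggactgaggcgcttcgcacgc
Axl, chr7:25788684-25788983, minus strand: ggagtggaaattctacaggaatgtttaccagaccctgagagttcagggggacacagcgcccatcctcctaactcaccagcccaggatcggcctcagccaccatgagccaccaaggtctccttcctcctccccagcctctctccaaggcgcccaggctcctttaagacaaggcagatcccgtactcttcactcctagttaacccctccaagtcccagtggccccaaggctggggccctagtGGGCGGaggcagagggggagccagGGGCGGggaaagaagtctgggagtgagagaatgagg
Tyro3, chr2:119799264-119799563, plus strand: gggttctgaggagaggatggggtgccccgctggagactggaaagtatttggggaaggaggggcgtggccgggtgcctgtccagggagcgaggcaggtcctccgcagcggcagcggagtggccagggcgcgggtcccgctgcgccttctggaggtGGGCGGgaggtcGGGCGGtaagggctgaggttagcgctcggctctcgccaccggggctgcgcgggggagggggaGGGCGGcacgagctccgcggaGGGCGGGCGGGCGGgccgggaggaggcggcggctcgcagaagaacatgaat
Gas6, chr8:13494486-13494785, minus strand: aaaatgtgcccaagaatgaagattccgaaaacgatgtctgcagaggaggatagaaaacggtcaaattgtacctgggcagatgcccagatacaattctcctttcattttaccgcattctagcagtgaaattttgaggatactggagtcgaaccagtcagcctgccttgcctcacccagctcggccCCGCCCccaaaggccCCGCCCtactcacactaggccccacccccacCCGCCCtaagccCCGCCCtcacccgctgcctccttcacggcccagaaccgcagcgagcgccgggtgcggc
Pros1, chr16:62854057-62854356, plus strand: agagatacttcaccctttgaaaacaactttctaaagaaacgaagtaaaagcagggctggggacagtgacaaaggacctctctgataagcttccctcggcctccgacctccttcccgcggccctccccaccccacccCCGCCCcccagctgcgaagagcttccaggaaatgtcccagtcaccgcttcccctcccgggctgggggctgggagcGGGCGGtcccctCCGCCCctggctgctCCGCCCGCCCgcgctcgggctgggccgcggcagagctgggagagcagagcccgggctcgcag
Elmo1, chr13:20090257-20090556, plus strand: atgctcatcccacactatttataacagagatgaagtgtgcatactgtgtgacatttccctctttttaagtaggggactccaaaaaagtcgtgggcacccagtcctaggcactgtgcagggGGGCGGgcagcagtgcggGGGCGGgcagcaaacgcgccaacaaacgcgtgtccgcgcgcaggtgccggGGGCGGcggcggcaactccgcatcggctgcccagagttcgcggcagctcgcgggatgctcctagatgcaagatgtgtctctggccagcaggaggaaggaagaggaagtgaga

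All 9 members had a window, and Elmo1 had a second one at a downstream start, which held none of the motifs searched. The Tyro3 window, 119799264 to 119799563, lies downstream of the gene's start in GENCODE vM21, 119797733. The GC box was found in 8 of the members' 10 windows, in 8 of the 9 genes, against 35.7% of all 32851 windows. Timd4 was the gene without it. The 8 windows with a GC box were 58.3 to 73.3% G and C, against a median of 52.7% over all windows. Tyro3 held 6 matches, Pros1 5, Gas6 4, Mertk 4, Mfge8 4, Elmo1 3, Dock1 3 and Axl 2. The PU.1 core letters GAGGAA, searched on both strands as were all motifs, occurred in 4 of the 10 windows, against 28.3% of all windows. These were windows of Axl, Mfge8, Elmo1 and Dock1. AP-1 letters TGANTCA, found in 7.81% of all windows, were in none of the members' windows, and neither was the E-box CACGTG (7.15%). TEAD letters GGAATG were in Axl and Dock1 (14.7% of all windows), and the TATA letters TATAAA were in Elmo1 (13.6%). A match is a description of the letters, not of a bound site.

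The comparison of 50 kPa with 2 kPa asks how substrate stiffness changes gene expression in the whole culture. At 50 kPa the transcript of Elmo1, the Rac activator's adaptor subunit, fell to 0.724 of its 2 kPa level. Mertk, Axl, Tyro3, Gas6, Pros1, Mfge8 and Dock1 did not pass the test, and Timd4 was too low to be tested. Tyro3, Gas6 and Pros1 had fitted levels 2.00, 2.11 and 2.16 times as high at 50 kPa, but their replicates varied by 4.08-fold to 8.23-fold within the 2 kPa group. Of the 8 members tested with edgeR's quasi-likelihood test at a Benjamini-Hochberg adjusted p under 0.05, 0 were higher and 1 was lower, beside 1.47% of all 13155 tested genes higher and 1.98% lower. The members' median log2 fold change was 0.49, and that of all tested genes was -0.03. At an unadjusted p under 0.05 edgeR gave 0 higher and 1 lower of the 8, beside 13% of all tested genes higher and 14.8% lower (27.8% in all). DESeq2 called 0 higher and 1 lower, again Elmo1, beside 8.52% of its tested genes higher and 9.51% lower (18% in all).

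**Figure D1:**
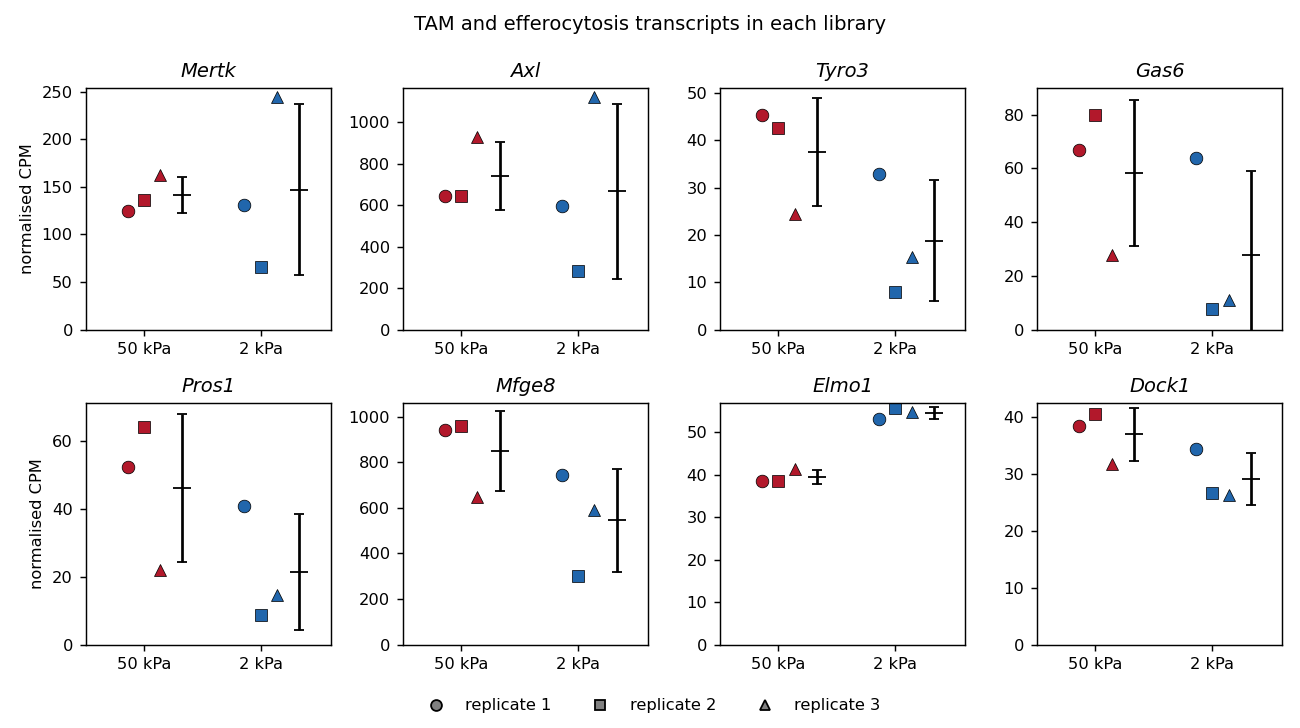
Normalised CPM of the 8 tested members in each library, 50 kPa left and 2 kPa right, with a linear axis from 0 for each gene. Marker shapes give the replicate number and the black bars the mean ± SD of 3 libraries, with the Gas6 bar at 2 kPa stopping at the axis. The Elmo1 libraries at 50 kPa, from 38.5 to 41.4 CPM, all lie below those at 2 kPa, while the groups overlap for the other 7 genes.

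Mertk encodes a receptor that tethers and engulfs apoptotic cells in macrophages (chromosome 2, 128698956 to 128802894, plus strand of GRCm38). It stood at 125, 136 and 162 CPM in 50 kPa replicates 1 to 3, and at 131, 66.2 and 244 CPM in 2 kPa replicates 1 to 3. The highest and the lowest of the 6 libraries were both at 2 kPa, so the 50 kPa values lay inside the 2 kPa range. Its mean level was 141 ± 19.2 CPM on the stiff substrate and 147 ± 89.9 CPM on the soft one (SD, n = 3 each), with a log2 fold change of -0.06 ± 0.44 (50 kPa over 2 kPa, ± SE as throughout; edgeR adjusted p = 0.941). The 95% interval of that change, -1.12 to 1.00, does not show that the groups were alike. The sign depended on 1 library: leaving out low tension replicate 3 gave 0.52, and leaving out low tension replicate 2 gave -0.41.

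Axl encodes the TAM receptor that mouse dendritic cells raise under inflammatory stimuli (chromosome 7, 25757273 to 25788705, minus strand). It stood at 646, 645 and 930 CPM at 50 kPa and at 598, 282 and 1120 CPM at 2 kPa. As for Mertk, low tension replicate 3 was highest and low tension replicate 2 lowest. The means were 740 ± 164 CPM at 50 kPa and 665 ± 422 CPM at 2 kPa (SD, n = 3 each), and the log2 fold change was 0.15 ± 0.48 (95% interval -1.0 to 1.31; edgeR adjusted p = 0.848). Leaving out low tension replicate 3 gave 0.75, and leaving out low tension replicate 2 gave -0.22.

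Tyro3 encodes the third TAM receptor, which binds both ligands (chromosome 2, 119797733 to 119818104, plus strand). It stood at 45.4, 42.6 and 24.4 CPM at 50 kPa and at 32.9, 8.06 and 15.3 CPM at 2 kPa. High tension replicate 3 lay below low tension replicate 1, which is the only overlap of the groups for this gene. The means were 37.5 ± 11.4 CPM at 50 kPa and 18.8 ± 12.8 CPM at 2 kPa (SD, n = 3 each), and the log2 fold change was 1.00 ± 0.52 (95% interval -0.25 to 2.25; edgeR adjusted p = 0.257). Without low tension replicate 1 the change was 1.68 (edgeR adjusted p = 0.0678), and without low tension replicate 2 it was 0.63.

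Of the ligands, Gas6 encodes a vitamin K-dependent protein that binds all 3 TAM receptors (chromosome 8, 13465374 to 13494490, minus strand). It stood at 67.0, 79.8 and 27.7 CPM at 50 kPa and at 63.9, 7.77 and 11.1 CPM at 2 kPa. Low tension replicate 1 was thus near high tension replicates 1 and 2, and the other 2 kPa libraries were the lowest of the 6. The means were 58.1 ± 27.1 CPM at 50 kPa and 27.6 ± 31.5 CPM at 2 kPa (SD, n = 3 each), and the log2 fold change was 1.08 ± 0.85 (95% interval -0.98 to 3.13; edgeR adjusted p = 0.434). Without low tension replicate 1 it was 2.63 (edgeR adjusted p = 0.0543), and over all 6 fits that left out 1 library it ran from 0.63 to 2.63.

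Pros1 encodes protein S, a vitamin K-dependent anticoagulant that is also a ligand of Mertk and Tyro3 (chromosome 16, 62854307 to 62929346, plus strand). It stood at 52.4, 64.1 and 22.0 CPM at 50 kPa and at 40.9, 8.68 and 14.5 CPM at 2 kPa. The libraries fell in the same order as for Gas6, with a Spearman rho of 1.00 over the 6 libraries. Mfge8 shared that order, with a rho of 1.00 with each ligand, so it was not particular to the ligands. The means were 46.1 ± 21.7 CPM at 50 kPa and 21.4 ± 17.2 CPM at 2 kPa (SD, n = 3 each), and the log2 fold change was 1.11 ± 0.65 (95% interval -0.45 to 2.67; edgeR adjusted p = 0.302). Without low tension replicate 1 it was 2.00 (edgeR adjusted p = 0.0769).

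Mfge8, which encodes the milk fat globule protein that links phosphatidylserine to integrins, lies at chromosome 7, 79133768 to 79149060, minus strand. It stood at 939, 959 and 649 CPM at 50 kPa and at 744, 299 and 592 CPM at 2 kPa. High tension replicate 3 lay between low tension replicates 1 and 3. The means were 849 ± 173 CPM at 50 kPa and 545 ± 226 CPM at 2 kPa (SD, n = 3 each), and the log2 fold change was 0.64 ± 0.35 (95% interval -0.21 to 1.49; edgeR adjusted p = 0.280). It ran from 0.34 without low tension replicate 2 to 0.93 without low tension replicate 1.

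Timd4, which encodes the phosphatidylserine receptor TIM-4 of resident macrophages, lies at chromosome 11, 46810800 to 46844332, plus strand. It had 0 counts in each 50 kPa library and 0, 2 and 1 counts in 2 kPa replicates 1 to 3. A count of 0 allows a level of up to 0.0868 to 0.0933 CPM in the 50 kPa libraries, taken as 3 counts per library and covering counting error only. No difference between the stiffnesses was detectable at this depth.

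Elmo1 lies at chromosome 13, 20090596 to 20608353, plus strand. It stood at 38.5, 38.6 and 41.4 CPM at 50 kPa and at 53.1, 55.8 and 54.8 CPM at 2 kPa. The groups did not overlap, a property of 34.1% of all tested genes, and the libraries within a group varied by 1.08-fold at 50 kPa and 1.05-fold at 2 kPa. The means were 39.5 ± 1.67 CPM at 50 kPa and 54.6 ± 1.34 CPM at 2 kPa (SD, n = 3 each), a log2 fold change of -0.47 ± 0.08 (95% interval -0.65 to -0.28; edgeR adjusted p = 0.0392; DESeq2 adjusted p = 6.54e-06). In each of the 6 edgeR fits that left out 1 library the log2 fold change stayed between -0.50 and -0.43. The adjusted p in them was 0.0515 to 0.217, so the call did not outlast the loss of any library. The main fits count high tension replicates 1 and 2, the closest pair of libraries, as separate. With their counts summed the log2 fold change was -0.43 (edgeR adjusted p = 0.196). The summed neutrophil and B cell markers also differed between the groups. Among the 2 kPa libraries neutrophil markers varied by 1.94-fold, B cell markers by 1.61-fold and Elmo1 by 1.05-fold. The libraries of both groups fell in the same order for Elmo1 and for the neutrophil sum, an order looked at after the values were seen. The part of these cells in the Elmo1 result was not tested.

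Dock1, the exchange factor that Elmo1 protein binds, lies at chromosome 7, 134670654 to 135173639, plus strand. It stood at 38.5, 40.6 and 31.7 CPM at 50 kPa and at 34.3, 26.6 and 26.3 CPM at 2 kPa, with an overlap between high tension replicate 3 and low tension replicate 1. The means were 36.9 ± 4.61 CPM at 50 kPa and 29.0 ± 4.55 CPM at 2 kPa (SD, n = 3 each), and the log2 fold change was 0.35 ± 0.15 (95% interval -0.02 to 0.71; edgeR adjusted p = 0.194). Its fitted change and that of Elmo1 thus had opposite signs. Other genes of the 2 families, named after their values were seen, did not divide in that way. Dock2 and Dock5 were fitted at -0.23 and -0.95, and Elmo2 and Elmo3 at 0.295 and 0.289, none of them called by edgeR. Dock2 was more abundant than Dock1, at 124 CPM at 50 kPa and 146 CPM at 2 kPa. Scaled by exon length, Elmo1 over Dock1 was 0.742, 0.706 and 0.968 at 50 kPa and 1.15, 1.56 and 1.55 at 2 kPa, a ratio looked at after the values were seen and not tested.

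**Figure D2:**
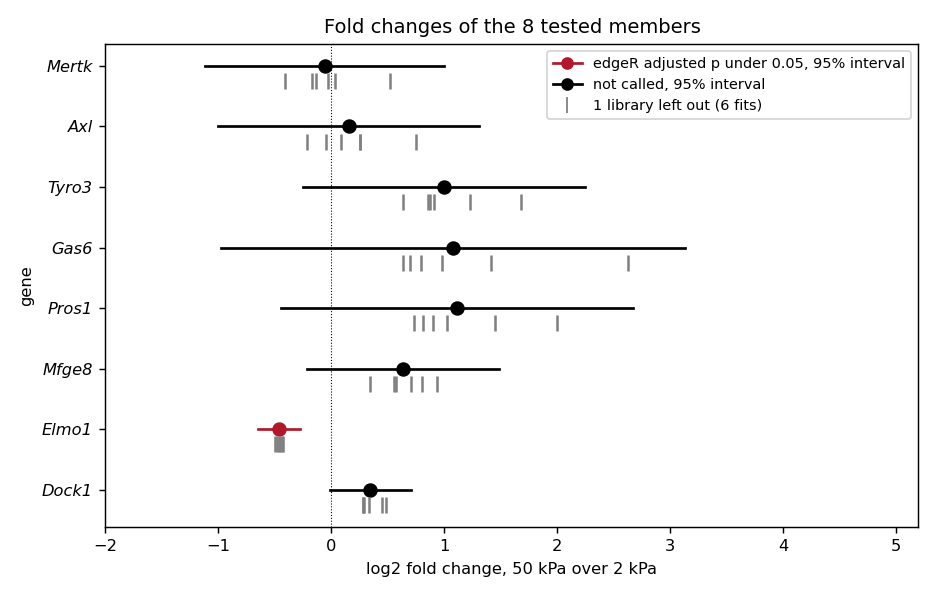
Log2 fold change, 50 kPa over 2 kPa, of the 8 tested members (points) with 95% intervals from the edgeR fit (lines). Grey ticks are the 6 fits that each left out 1 library. The Elmo1 interval, -0.65 to -0.28, lies below 0 and the other 7 intervals include 0, with the Gas6 ticks spread from 0.63 to 2.63.

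Levels of different genes were compared as CPM per kb of merged exons in GENCODE vM21. At 50 kPa the order was Mfge8 (181 ± 36.9), Axl (147 ± 32.7), Mertk (32.5 ± 4.44), Gas6 (22.8 ± 10.7), Pros1 (11.3 ± 5.32), Tyro3 (6.04 ± 1.84), Dock1 (3.96 ± 0.494) and Elmo1 (3.14 ± 0.133 CPM per kb; SD, n = 3). At 2 kPa it was Axl (132 ± 83.8), Mfge8 (116 ± 48.2), Mertk (33.9 ± 20.7), Gas6 (10.8 ± 12.4), Pros1 (5.22 ± 4.20), Elmo1 (4.34 ± 0.107), Dock1 (3.11 ± 0.487) and Tyro3 (3.03 ± 2.06 CPM per kb; SD, n = 3). The ranges of neighbours over the libraries of a group overlapped, with 2 exceptions in each group. These were Axl over Mertk and Dock1 over Elmo1 at 50 kPa, and Mfge8 over Mertk and Elmo1 over Dock1 at 2 kPa. Within every single library, though, Mertk lay above Gas6, Gas6 above Pros1 and Pros1 above Tyro3. Timd4 was last in both groups.

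The balance of the receptors does not depend on the scaling between libraries. Axl made up 78.1, 77.0 and 81.7% of the length-scaled sum of the 3 receptors at 50 kPa and 77.0, 77.2 and 79.1% at 2 kPa. Tyro3 made up 4.45, 4.13 and 1.74% at 50 kPa and 3.44, 1.79 and 0.883% at 2 kPa. The ratio of Axl to Mertk per kb was 4.47, 4.08 and 4.94 at 50 kPa and 3.94, 3.66 and 3.95 at 2 kPa. Its groups did not overlap, and the mean log2 ratio was 2.16 ± 0.14 at 50 kPa and 1.94 ± 0.06 at 2 kPa (SD, n = 3 each), a difference of 0.22. The 2-sided exact permutation p was 0.1 (adjusted p = 0.2 over 2 ratios), and groups of 3 can give no smaller p. The ratio of Gas6 to Pros1 per kb was 2.05, 2.00 and 2.02 at 50 kPa and 2.51, 1.44 and 1.22 at 2 kPa. The 50 kPa libraries lay close together inside the 2 kPa range, with a difference of 0.30 in mean log2 ratio (exact permutation p = 0.4, adjusted p = 0.4).

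**Figure D3:**
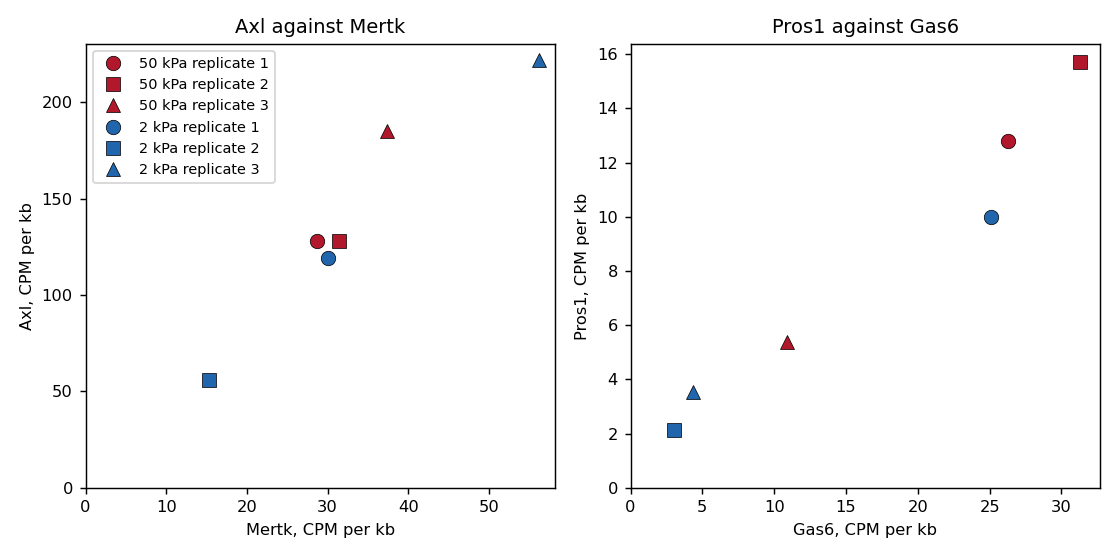
Axl against Mertk (left) and Pros1 against Gas6 (right), in CPM per kb of merged exons on linear axes, with a point for each library (50 kPa red, 2 kPa blue, shapes for replicate numbers). Low tension replicates 2 and 3 take the lowest and highest places in the receptor plot, and low tension replicate 1 lies with high tension replicates 1 and 2 in the ligand plot.

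The members fell into sets that moved together across the libraries, and these correlations of log2 CPM are descriptions over the same 6 libraries, 2 of them nearly alike. Mertk and Axl had a Pearson r of 0.978, and 0.992 for their deviations from the group means. Gas6 and Pros1 had an r of 0.985 (0.977 for the deviations), Tyro3 and Pros1 of 0.979, Tyro3 and Gas6 of 0.968, and Tyro3 and Mfge8 of 0.973. Dock1 went with Gas6 (0.963) and Pros1 (0.966). Mertk had an r of 0.131 with Gas6 and 0.325 with Tyro3, so the most abundant receptors and the ligands did not share an order of libraries. Elmo1 ran against Dock1 (r = -0.821) and against Tyro3 (r = -0.766). The promoter windows had 4 and 2 GC boxes for Mertk and Axl, and 6, 4 and 5 for Tyro3, Gas6 and Pros1. Mfge8 had 4 and Dock1 had 3, so the counts of the sets overlapped.

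**Figure D4:**
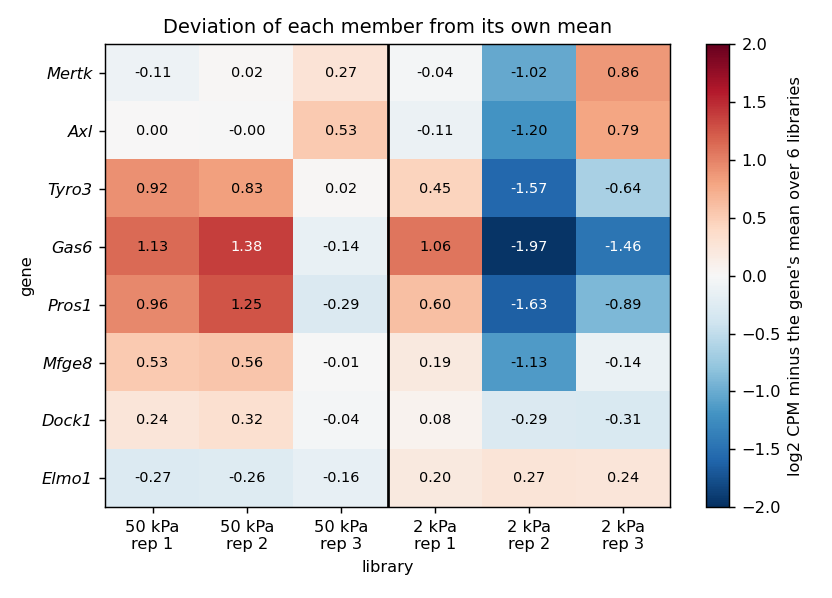
Log2 CPM of each tested member minus its mean over the 6 libraries, with 50 kPa libraries left of the line and 2 kPa libraries right of it. Mertk and Axl are highest in low tension replicate 3 (0.86 and 0.79), while Tyro3, Gas6 and Pros1 are high in high tension replicates 1 and 2 and in low tension replicate 1.

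The genes most like each receptor and ligand were looked for by Pearson r of log2 CPM over the 6 libraries, among 9689 others with a mean of at least 5 CPM. For Mertk these were Icosl, Pkp4 and Anpep (r = 0.996, 0.994 and 0.993), and for Axl they were Il10ra, Gbp11 and Clec2d (r = 0.996, 0.996 and 0.995). For Tyro3 they were Slc41a3, Sorbs3 and Hebp1 (r = 0.998, 0.997 and 0.997). For Gas6 they were Gfra2, Slc17a5 and Pdgfc (r = 0.997, 0.996 and 0.996), and for Pros1 they were Socs6, Ttc21b and Nat6 (r = 0.998, 0.997 and 0.996). For Mfge8 they were Atp6ap1, Igf1 and F7, each with an r of 0.996. An r above 0.9 was common: 2.28% of the candidates had one with Mertk, 2.20% with Axl, 7.34% with Tyro3, 6.07% with Gas6, 6.84% with Pros1 and 6.16% with Mfge8. Gbp11, an interferon-inducible GTPase, stood at 17.9, 19.3 and 34.4 CPM at 50 kPa and at 17.4, 6.64 and 41.0 CPM at 2 kPa, highest and lowest in the same libraries as Axl. Igf1, an insulin-like growth factor made by macrophages, stood at 398, 416 and 226 CPM at 50 kPa and at 244, 41.7 and 154 CPM at 2 kPa.

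Around the members, 107 other genes of apoptotic cell clearance were grouped in 7 lists, of which 101 genes were tested. By edgeR 1 rose, 2 fell and 98 were not called, 2.97% in all beside 3.45% of all tested genes. Their median log2 fold change was 0.10. P2ry2, a nucleotide receptor through which phagocytes sense ATP from dying cells, rose. Itgb3, the integrin beta 3 chain that pairs with Itgav to bind Mfge8, and Megf10, an engulfment receptor known from glia, fell.

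P2ry2 stood at 20.8, 18.4 and 15.2 CPM at 50 kPa and at 9.78, 10.9 and 10.4 CPM at 2 kPa, with no overlap and a log2 fold change of 0.81 ± 0.14 (edgeR adjusted p = 0.0452). Itgb3 stood at 38.0, 34.9 and 30.8 CPM at 50 kPa and at 59.4, 77.0 and 58.2 CPM at 2 kPa. Its groups did not overlap, and the log2 fold change was -0.91 ± 0.15 (edgeR adjusted p = 0.0381). Of other integrin chains, named after their values were seen, Itgav was at -0.11 and Itgb5 at 0.84 (edgeR adjusted p = 0.777 and 0.240). The megakaryocyte marker Itga2b was at -2.51 (edgeR adjusted p = 0.0444). The part of megakaryocytes in the Itgb3 value was not tested. Megf10 had 2, 2 and 4 counts at 50 kPa and 13, 27 and 13 counts at 2 kPa, a log2 fold change of -2.48 ± 0.46 at well under 1 CPM (edgeR adjusted p = 0.0481). In the 6 fits that left out 1 library P2ry2 was called in 1, without high tension replicate 3, Itgb3 in 1, without low tension replicate 1, and Megf10 in 0. Their edgeR adjusted p-values ran up to 0.198 for P2ry2, 0.181 for Itgb3 and 0.218 for Megf10.

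Among 17 other apoptotic cell receptors tested, 0 rose, 1 fell and the median log2 fold change was 0.26. DESeq2 called 5 of these receptors higher, the lipid-binding receptor gene Trem2, the scavenger receptor genes Cd36 and Scarb1, Lrp1 and Cd300lb, and the same 5 were higher with edgeR at an unadjusted p under 0.05, names given after their values were seen. Among 10 bridging proteins and opsonins 0 were called and the median was 0.43. The smallest p-values of that list belonged to the complement genes C1qa and C1qc, which opsonise dying cells, at 1.39 ± 0.48 and 1.33 ± 0.49 (edgeR adjusted p = 0.130 and 0.145). C1qa was at 559, 600 and 460 CPM at 50 kPa and at 306, 76.4 and 236 CPM at 2 kPa, with no overlap. Other engulfment machinery gave 1 lower gene among 18 and a median of -0.09, and find-me signals with their receptors gave 1 higher gene among 9 and a median of 0.38.

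Phagosome maturation and digestion gave 0 calls among 22 genes and a median of 0.17, led by the lysosomal cholesterol transporter gene Npc1 (0.66 ± 0.16, edgeR adjusted p = 0.0761) and the autophagy gene Atg7 (0.52 ± 0.17, edgeR adjusted p = 0.125). Phosphatidylserine exposure and do-not-eat-me signals gave 0 calls among 11 and a median of -0.57. The smallest p-values of that list were those of Cd24a, a ligand of inhibitory Siglecs (-0.74 ± 0.16, edgeR adjusted p = 0.0618), and the phospholipid scramblase gene Plscr1 (-0.87 ± 0.30, edgeR adjusted p = 0.131). Genes of TAM shedding, vitamin K-dependent carboxylation and regulation gave 0 calls among 14 and a median of 0.07. In that list the vitamin K reductase gene Vkorc1l1 (0.49 ± 0.16) had an edgeR adjusted p of 0.121.

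At an unadjusted p under 0.05, edgeR gave 13% of all tested genes as higher and 14.8% as lower. By that rule 5 receptors of 17, 3 bridging genes of 10, 4 phagosome genes of 22, 4 find-me genes of 9 and 2 TAM regulation genes of 14 were higher. The phagosome and TAM regulation counts lie near the share of all tested genes, and the others above it. Lower by the same rule were 4 exposure genes of 11 and 5 engulfment genes of 18, both above the share of all tested genes, and 1 receptor and 1 find-me gene. DESeq2 called 5 receptors, 2 bridging genes, 1 phagosome gene, 2 find-me genes and 2 TAM regulation genes higher, beside 8.52% of all its tested genes. It called 1 receptor, 2 engulfment genes and 2 exposure genes lower, beside 9.51%. The lists were chosen with earlier results of these data known, so these counts are descriptions. The 3 bridging genes were C1qa, C1qb and C1qc, for which the libraries fell in the same order, so they are not separate observations.

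**Figure D5:**
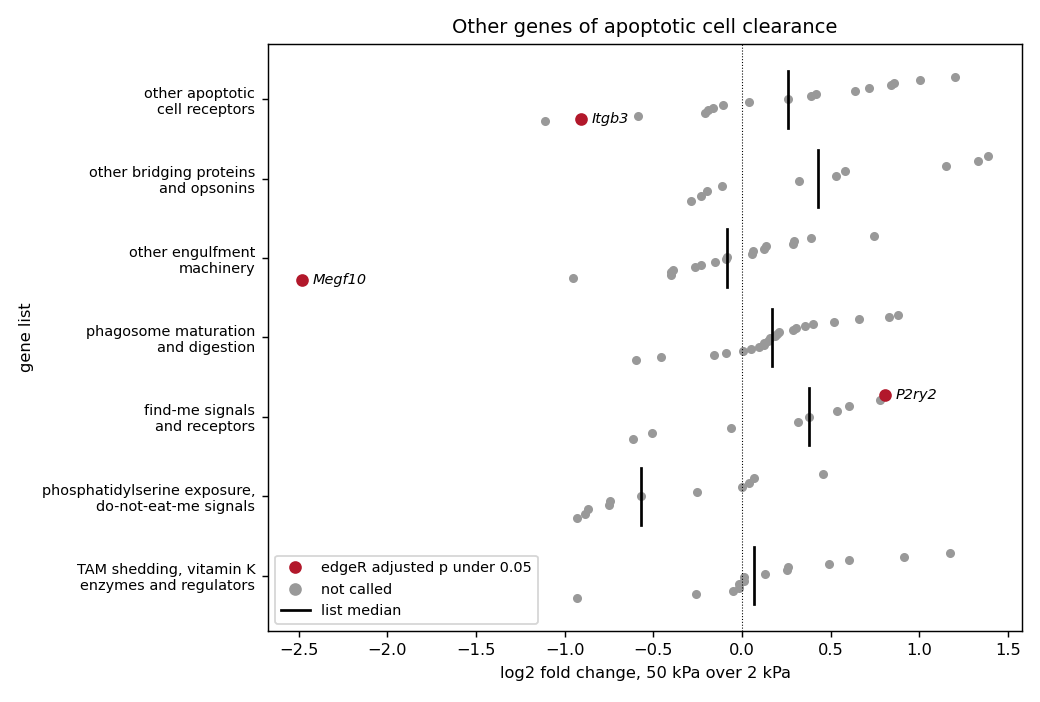
Log2 fold change, 50 kPa over 2 kPa, of 101 tested genes of apoptotic cell clearance other than the members, in 7 lists. Red points passed the edgeR test, grey points did not, and the black bars are list medians, which run from -0.57 to 0.43.

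The macrophage marker sum was higher in every 50 kPa library than in any 2 kPa library. Of 13 tested macrophage markers edgeR called 0, with a median log2 fold change of 0.30, 10 positive changes and 3 negative. At an unadjusted p under 0.05 edgeR gave 3 higher and 0 lower, beside 13% and 14.8% of all tested genes. DESeq2 called 3 higher and 0 lower, beside 8.52% and 9.51% of its tested genes. Stromal markers, of cells that can also make Gas6 and Mfge8, summed to 3.11 to 5.24 CPM at 50 kPa and 7.19 to 27.5 CPM at 2 kPa. They were 8 genes, none at 0 in all libraries. Megakaryocyte markers, of cells that can make protein S, summed to 77.2 to 244 CPM at 50 kPa and 225 to 386 CPM at 2 kPa over 8 genes, with none at 0 in all libraries. Pf4, the most abundant of them, was at 62.5 to 204 CPM at 50 kPa and 82.7 to 186 CPM at 2 kPa, and the other 7, again a sum chosen after the values were seen, lay at 14.2 to 39.7 CPM at 50 kPa and 137 to 200 CPM at 2 kPa, with no overlap. edgeR called 5 of the 8 megakaryocyte markers lower at 50 kPa and 0 higher, with a median log2 fold change of -3.22. The part of these cell types in the values of the members and of the pathway genes was not tested. In the annotation 34 exonic bases of Gas6 (1.33%) overlap Tmem255b on the opposite strand, a gene with 0 counts in all libraries, and 403 exonic bases of Elmo1 (3.20%) overlap Gm32036, which is not in the tables. The sources used here do not say whether reads were counted by strand, and the Elmo1 values may hold reads of both strands.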

How the data were processed

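The authors deposited a table of raw read counts for each of the 6 libraries, with a row per gene symbol. HTSeq 0.6.1p2, TopHat2 2.0.11, FastQC 0.11.2 and edgeR (3.8.6 and 3.16.5) appear, without role or order, in the submitters' processing notes, as do the builds hg19 and mm10. How reads were stranded, annotated or assigned when they matched several genes was not given in the sources used here. No row of unassigned reads is present.

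Titles gave each sample's tension, low or high, and so its group. Counts were tested in R 4.3.3 with edgeR 4.0.16 (filterByExpr with minimum count 10 and minimum total 15, TMM factors of 0.927 to 1.16, glmQLFit and glmQLFTest, stiffness as the term). The Benjamini-Hochberg adjustment covered all 13155 tested genes, and an adjusted p under 0.05 was called. A standard error is the log2 fold change divided by the square root of F. Log2 CPM for correlations used a prior count of 2. The common biological coefficient of variation was 24.6%. DESeq2 1.42.0 and limma 3.58.1 gave alternatives, beside other scalings, filters, replicate number as a block, and libraries left out or summed. Ratios were tested by exact permutation with scipy 1.17.1. The procedure was tested on simulated counts with known changes.

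The members, the 7 pathway lists, the 11 cell marker lists and the alternatives were chosen with earlier results of these data known. Named genes were all members, pathway genes past the threshold, for lists with none the 2 with the smallest p, and the 3 genes most like each receptor, ligand and Mfge8. One gene that this rule names is not reported here. Predicted genes, pseudogenes and small RNAs were left out of the last rule. Coordinates and exon lengths are from GENCODE vM21 on GRCm38, the build also called mm10, and promoters from RefSeq on GRCm38.p6. Replicate numbers were not taken as pairs: the labels do not say what they mark, and deviations of same-numbered libraries from their group means correlated with r = 0.54, -0.11 and 0.49 over genes.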

Additional observations from a re-analysis of the deposited data

How the results depend on the processing

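Elmo1 stayed negative in all 17 other fits, from -0.60 to -0.43. It was called with RLE and upper-quartile scaling, DESeq2, limma-voom, the robust fit, the replicate block and 2 against 2 libraries. It was not called with total counts as the scaling (adjusted p = 0.0599), no low-count filter (0.0546), at least 5 CPM in 3 libraries (0.0577) or high tension replicates 1 and 2 summed (0.196). These 4 fits, and a required fold change of at least 2-fold, left 0 lower members. Total-count scaling put the median change over all genes at -0.16, against -0.03 with TMM factors. The sign of Mertk turned to 0.10 with limma-voom, 0.12 with the replicate block and 0.00 (0.004) with the summed libraries. With 1 library left out, Mertk ran from -0.41 to 0.52 and Axl from -0.22 to 0.75.

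Over the 6 fits that left out 1 library, members called numbered 0 higher and 0 lower, pathway genes 0 to 4 higher and 0 to 2 lower, and all genes 0 to 255 higher and 0 to 256 lower. Pathway genes called higher and lower numbered 0 and 1 with total counts, 1 and 1 without the filter, 0 and 0 at 5 CPM, 12 and 5 by DESeq2, 3 and 3 with the replicate block, 0 and 1 at 2-fold, and 0 and 0 with the summed libraries. All genes called higher and lower numbered 77 and 257 with total counts, 20 and 16 at 5 CPM, 1121 and 1251 by DESeq2, 254 and 522 with the replicate block, 97 and 223 at 2-fold, and 0 and 0 with the summed libraries. By the deviations, 3 of 6 libraries were closest to their own replicate number. With the block Elmo1 was at -0.47 (edgeR adjusted p = 0.0494).

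Low tension replicate 1 and high tension replicate 3 lie between the others on the first principal component, so leaving out both widens differences by its construction. In that fit 4 members were higher, Gas6 at 2.97, Pros1 at 2.34, Tyro3 at 1.92 and Dock1 at 0.59 (edgeR adjusted p = 0.0161 to 0.0393), Elmo1 was lower, Axl was at -0.12, 14 pathway genes were higher and 12 lower, and all genes numbered 902 and 984. The cause of these changes was not tested. The Axl to Mertk difference ran from 0.15 to 0.29 and the Gas6 to Pros1 difference from 0.09 to 0.61 with 1 library left out. At 33.8 M counts or more, depth limits Timd4 and Megf10.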
